A study of Caenorhabditis elegans with 40 samples.

Results

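The ubiquinone synthesis genes of Caenorhabditis elegans examined here were clk-1, coq-1, coq-2, coq-3, coq-4, coq-5, coq-6 and coq-8. They were the 8 rows carrying those symbols among the 20956 genes of the deposited expression table, and all 8 passed the filter on low values. The question was whether losing clk-1 function went with a change in the transcripts of the rest of the pathway. mRNA was sequenced from whole worms on day 1 of adulthood in 40 libraries, 4 for each of 10 groups. The groups were 5 genotypes, each fed either an empty vector control or RNA interference (RNAi) against repo-1, a component of the spliceosome, from hatching. The genotypes were the wild type strain N2, eat-2(ad1116) in strain DA1116, raga-1(ok386) in VC222, clk-1(qm30) in MQ130 and age-1(hx546) in TJ1052. Each mutant was 1 allele in 1 strain, so the allele and the rest of that strain's background cannot be told apart.

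Ubiquinone is the lipid that carries electrons between complexes of the mitochondrial inner membrane. It is built from a polyprenyl tail and an aromatic head group, which are joined and then hydroxylated, decarboxylated and methylated by a set of enzymes that in yeast form a complex. CLK-1 is the hydroxylase of a late ring step, and clk-1 mutants are known for storing its demethoxylated substrate, for slow development and rhythms, and for long life. qm30 is a deletion within clk-1.

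The libraries held 7.43 to 40.8 M reads assigned to genes. The deposited values, called normalized counts below, are reads divided by 1 size factor per library. Replicates 1 and 2 of every group share 1 run label, and replicates 3 and 4 share another, with 1 exception. The library of raga-1 on RNAi, replicate 3, carries a run label and date in its name that no other library has. Replicate numbers are also batch numbers, so the pairs of batches used below match this split. The reads behind a member's value ran from 48 for clk-1 in its least covered library to 2662 for coq-8 in its best covered one. repo-1 itself averaged 649 to 839 normalized counts in the 5 groups on empty vector and 265 to 373 in the 5 groups on RNAi. Markers of sperm, oocytes and germline, early embryo, intestine, body wall muscle, neurons, pharynx and hypodermis were detected in the wild type libraries, with the early embryo gene med-1 at 0 there. Nothing in the labels says whether the 4 libraries of a group were grown as separate cultures, and the p-values cover only the spread among them. In whole worms, fewer cells of a type and less RNA per cell cannot be told apart.

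The genes were expressed at levels within the same order of magnitude. Per kilobase of annotated exon, on empty vector in wild type, coq-5 was highest at 984 ± 75.8 normalized counts (SD, n = 4). It was followed by coq-8 at 616 ± 20.7 and coq-1 at 410.1 ± 27.5. coq-3 stood at 359.6 ± 33.6, coq-6 at 333 ± 6.42 and clk-1 at 307 ± 17.4. coq-4 at 264 ± 12.3 and coq-2 at 229.6 ± 9.43 were the lowest of the set on this scale. Over the 10 group means, coq-3 varied least, with its highest mean 1.16 times its lowest, and clk-1 varied most, at 3.18 times. coq-1 spanned 2.39 times, coq-5 2.03 times, coq-8 1.96 times, coq-2 1.74 times, coq-4 1.55 times and coq-6 1.40 times.

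**Figure D1:**
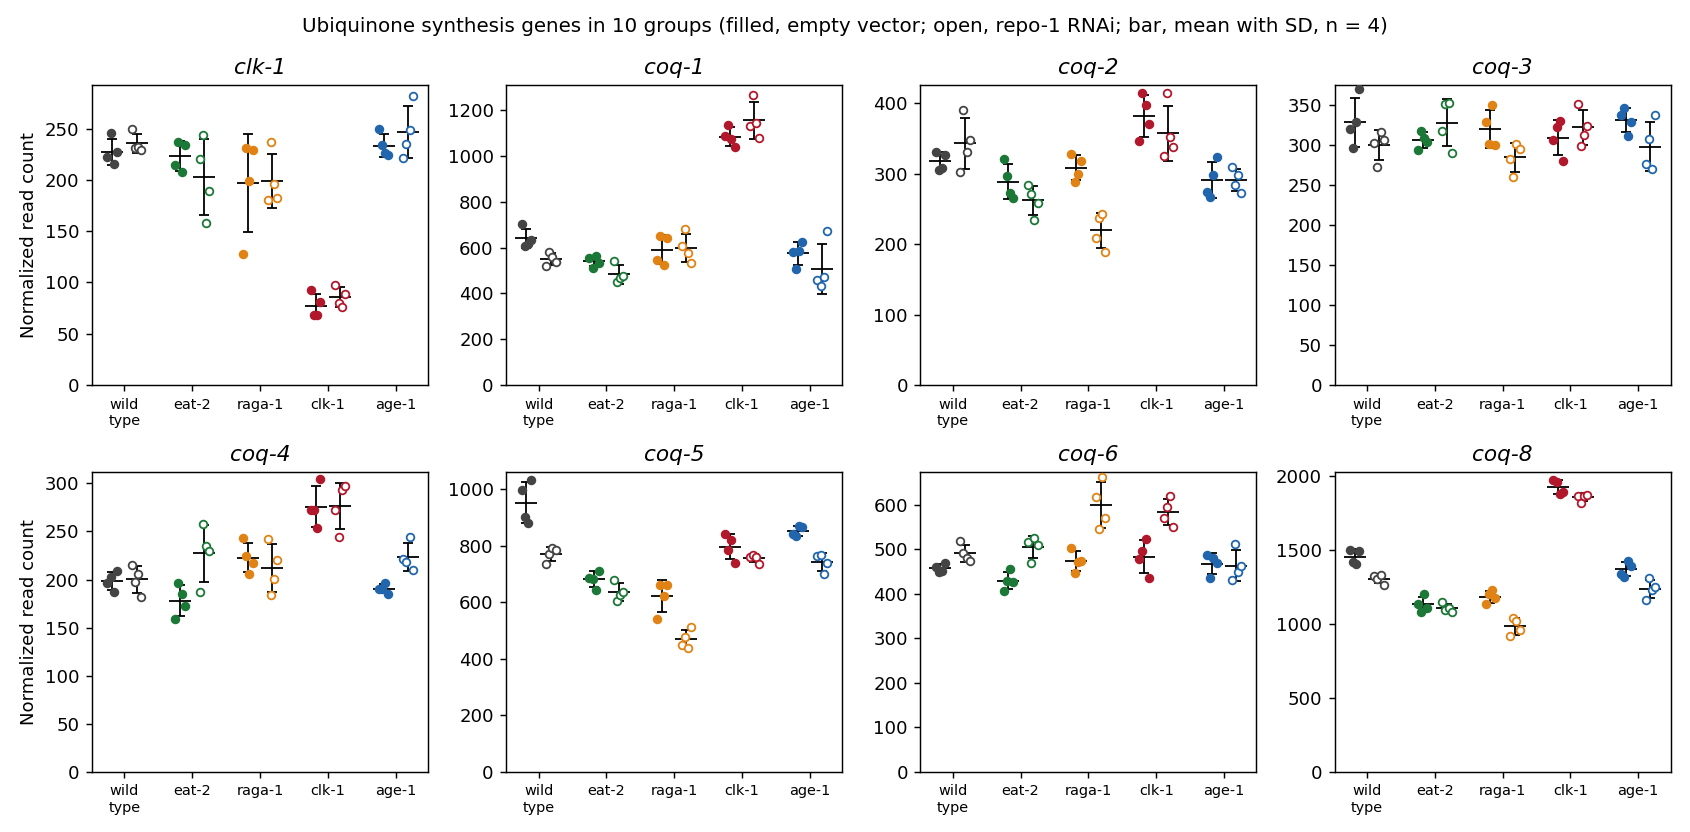
Normalized counts of each of the 8 ubiquinone synthesis genes (vertical axes, linear, from 0) in the 10 groups. Points are single libraries, filled on empty vector and open on repo-1 RNAi, and bars are the mean with its SD (n = 4): clk-1 was lowest and coq-1, coq-4 and coq-8 were highest in the 2 groups of clk-1 mutants.

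The clk-1 transcript came first because it checks the labels. clk-1 (WBGene00000536, WBcel235 chromosome III, 5277894 to 5279344, forward strand) read 222, 245, 215 and 227 normalized counts in wild type on empty vector, and 92.8, 68.7, 67.9 and 80.7 in the clk-1 mutants. All 4 mutant libraries lay below every library of the other 4 genotypes, and the mutant mean was 34.1% of wild type. The table counts reads over the whole gene, so it does not show which part of the transcript the remaining reads came from. On RNAi the mutants read 97.8, 80.3, 75.9 and 88.4 against 249.9, 231, 232 and 229 in wild type, a mean of 36.3% of wild type. In the 4 other genotypes the group means ran from 197 to 247, and their ranges overlapped from each group to the next in order. The lowest single library outside clk-1 mutants was raga-1 on empty vector, replicate 1, at 128, against 199 to 232 in the other 3 raga-1 libraries.

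In clk-1 mutants on empty vector, 4 of the 7 other genes were higher than in wild type and 1 was lower. The background was wide: 58.3% of the 12327 genes tested passed the same limma test at an adjusted p under 0.05 in this comparison, made up of 27.8% called higher and 30.4% called lower. The 5 of 7 called is thus near the share called among all genes. The median log2 difference of the 7 was 0.26, beside -0.01 over all genes tested.

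coq-1, which makes the polyprenyl diphosphate of the tail (WBGene00000761, chromosome I, 5412841 to 5415629, reverse strand), rose most. It read 703, 609, 617 and 633 normalized counts in wild type and 1088, 1137, 1075 and 1039 in clk-1 mutants. The groups were far apart, with the lowest mutant library well above the highest wild type one. The mutant mean was 169% of wild type, and the log2 difference was 0.76 ± 0.09 (SE, 95% interval 0.57 to 0.95, limma adjusted p = 9.798e-09). By absolute size this difference ranked 2651 of the 12327 genes tested. It was 0.77 within batches 1 and 2 and 0.76 within batches 3 and 4. coq-2, the transferase that joins the tail to the head group (WBGene00000762, chromosome III, 6935967 to 6939457, forward strand), read 331, 305, 309 and 327 in wild type and 346, 415, 397 and 370.3 in the mutants. The mutant libraries were all higher, but the gap between the groups was small. The log2 difference of 0.26 ± 0.09 passed (limma adjusted p = 0.01049). It did not pass without replicate 2 (0.20, adjusted p = 0.08039), without replicate 3 (0.23, adjusted p = 0.0845), within batches 1 and 2 (0.25, adjusted p = 0.1648) or after quantile normalization (0.14, adjusted p = 0.1835).

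Among the enzymes of the ring, the differences were smaller and did not share a direction. coq-5, the C-methyltransferase (WBGene00000765, chromosome III, 7857315 to 7858457, reverse strand), read 997, 900.5, 881 and 1032 in wild type and 840.3, 785, 821 and 739 in clk-1 mutants. All 4 mutant libraries lay below the wild type libraries. coq-5 fell by 0.26 ± 0.06 on the log2 scale (limma adjusted p = 0.000273), and within batches 1 and 2 the fall of 0.22 did not pass (adjusted p = 0.0564). coq-3, the O-methyltransferase (WBGene00000763, chromosome IV, 14793104 to 14796324, reverse strand), averaged 309 ± 22.4 in the mutants and 328 ± 30.7 in wild type (SD, n = 4), with overlapping libraries. Its log2 difference of -0.08 did not pass (limma adjusted p = 0.361), but after quantile normalization it was -0.22 and passed (adjusted p = 0.0165). coq-6, the flavin-dependent ring hydroxylase (WBGene00000766, chromosome V, 9336762 to 9338858, forward strand), averaged 483 ± 37.1 and 457 ± 8.80 (SD, n = 4), and the groups overlapped. Its log2 difference of 0.08 did not pass either (limma adjusted p = 0.293). With array quality weights it passed at 0.11 (adjusted p = 0.0441).

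The 2 remaining members, coq-8 and coq-4, were both higher. coq-8 encodes an atypical kinase-like ATPase, known from yeast to be needed for the synthesis complex (WBGene00000767, chromosome III, 4863427 to 4866948, forward strand). It read 1504, 1421, 1409 and 1494 in wild type and 1979, 1963, 1881 and 1893 in the mutants. The groups were apart and the libraries within each were close together, with coefficients of variation of 3.35% and 2.53%. The log2 difference was 0.40 ± 0.04 (limma adjusted p = 1.323e-10). coq-4, known from yeast as a protein that organises the complex (WBGene00000764, chromosome I, 3869214 to 3870114, forward strand), read 196, 202, 187 and 208 in wild type and 272.2, 271.9, 253 and 305 in the mutants. Every mutant library was above every wild type library, by 0.47 ± 0.09 on the log2 scale (limma adjusted p = 2.806e-05). The calls for clk-1, coq-1, coq-4 and coq-8 held in all 24 alternatives of this comparison. Over them the log2 difference of coq-4 ran from 0.27 to 0.51 and that of coq-1 from 0.71 to 0.81.

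Several tissue markers moved in the same comparison, and their part in these differences was not tested. The summed level of 16 sperm markers was 120 to 232 normalized counts in the 4 clk-1 libraries and 335 to 876 in wild type, and 14 of the 15 tested were lower. For 12 oocyte and germline markers the sums were 166861 to 176931 and 202849 to 213177, with 11 of 12 lower. The summed level of 8 intestine markers was higher in clk-1, at 1735910 to 2042110 against 1321040 to 1466740, with 4 higher and 3 lower among the 8. Body wall muscle markers summed to 71466 to 80520 and 93716 to 110744, with 6 of 8 lower and 2 higher. Neuron markers summed to 5353 to 5561 and 4371 to 4728, with 3 of 8 higher and none lower. Pharynx markers summed to 3382 to 3860.1 and 3922 to 4746, with 1 higher and 2 lower of 5 tested. Hypodermis markers summed to 74027 to 78720.0 and 75057 to 87419, with 2 of 7 higher and 1 lower. Early embryo markers summed to 357 to 389.6 and 404 to 516, with 2 of 4 tested lower, med-1 at 0 in both groups and sdz-23 at 0 in clk-1. No marker list other than early embryo held a gene at 0 in all libraries of either group.

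On repo-1 RNAi the clk-1 mutants and wild type were compared again, with other libraries of both genotypes. Here 4 of the 7 genes were higher and none was lower, beside 58.3% of all genes called, 29.3% higher and 29% lower. coq-1 read 521, 581, 558 and 536 in wild type and 1133, 1268, 1147 and 1078 in the mutants. The groups were apart again, at a mean of 211% of wild type and a log2 difference of 1.07 ± 0.09 (limma adjusted p = 3.588e-12). coq-8 was higher by 0.51 ± 0.04 (limma adjusted p = 5.429e-13), from means of 1307 ± 29.2 and 1858 ± 26.4 (SD, n = 4). coq-4 was higher by 0.46 ± 0.09 (limma adjusted p = 3.489e-05), from 200.2 ± 13.9 and 277 ± 24.0.

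For 3 members the calls on RNAi were not those on empty vector, and the interaction terms given further on test that departure. coq-6 was higher in the mutants on RNAi by 0.25 ± 0.06 (limma adjusted p = 0.000725), with 569, 594, 620 and 550.3 normalized counts against 518, 491, 480.3 and 474. Those libraries did not overlap. coq-2 and coq-5 did not pass on RNAi, at 0.06 (adjusted p = 0.58) and -0.03 (adjusted p = 0.69), and coq-3 did not pass at 0.10 (adjusted p = 0.26). Within batches 1 and 2, neither coq-4 (0.32, adjusted p = 0.1186) nor coq-6 (0.21, adjusted p = 0.1173) passed, while coq-1 and coq-8 did. coq-1, coq-4 and coq-8 were higher in both comparisons.

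Tissue markers moved in this comparison as well, not all in the direction seen on empty vector, and their part was not tested. Sperm markers summed to 1310.0 to 8219 normalized counts in clk-1 and 1663 to 2790.2 in wild type, with 0 of 15 called by limma and 0 at an unadjusted p under 0.05. Oocyte and germline markers summed to 134167 to 147726 and 183345 to 190302, with 12 of 12 lower. Early embryo markers summed to 235.4 to 302 and 579.99 to 605, with 4 of 4 tested lower, med-1 at 0 in both groups and sdz-23 and tbx-35 at 0 in wild type. Neuron markers summed to 6700.2 to 7518 and 4429 to 6217, with 7 of 8 higher and none lower. Intestine markers summed to 1925820.0 to 2076120.0 and 1236710.0 to 1372100.0, with 6 higher and 1 lower of 8. Body wall muscle markers summed to 107693 to 123360.0 and 97717 to 115105, with 5 of 8 higher and none lower, where 6 of 8 were lower on empty vector. Hypodermis markers summed to 94778 to 101497 and 69488 to 80380.3, with 2 higher and 2 lower of 7. Pharynx markers summed to 3703 to 4879.9 and 3859.6 to 4660.2, with 0 of 5 called by limma and 0 at an unadjusted p under 0.05.

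The other mutants gave a second yardstick on empty vector. The mean of eat-2, raga-1 and age-1 was set against clk-1, so that the wild type libraries did not enter. 5 of the 7 genes were higher in clk-1 and none was lower, beside 53.3% of all genes called, 25.4% higher and 27.9% lower. coq-1 was higher by 0.93 (limma adjusted p = 8.11e-13), coq-8 by 0.65 (2.051e-18) and coq-4 by 0.49 (6.778e-07). coq-2 was higher by 0.37 (4.283e-05) and coq-5 by 0.16 (0.0044). coq-5 therefore stood between wild type and the mean of the other mutants. The call for coq-5 did not hold without replicate 1 (0.11, adjusted p = 0.0652) or within batches 3 and 4 (0.11, adjusted p = 0.2329).

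**Figure D2:**
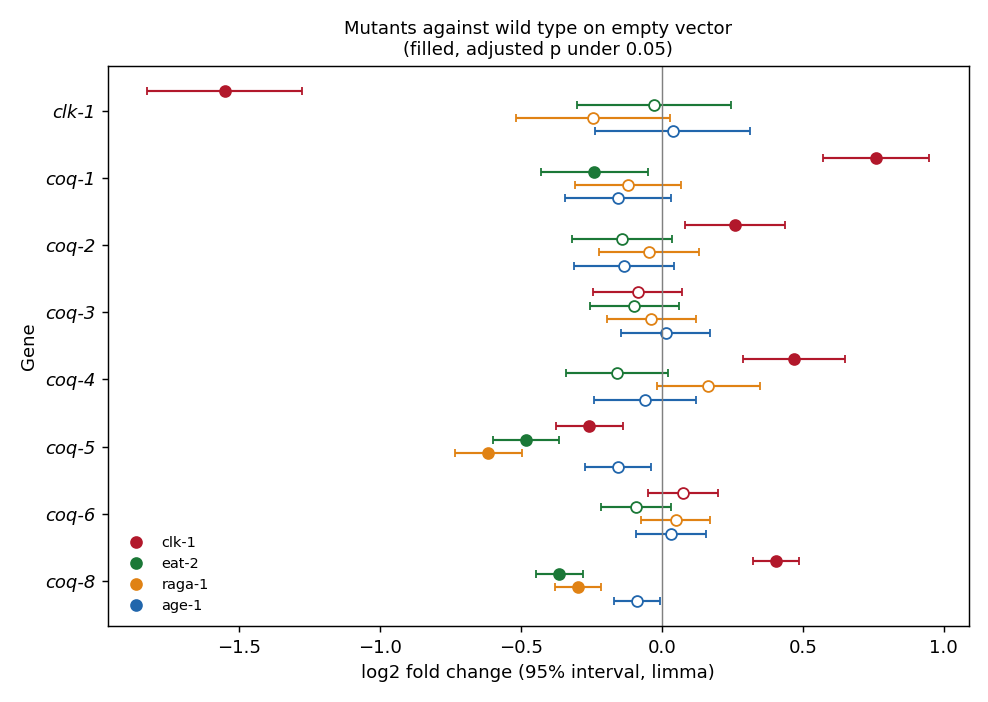
Log2 differences between each mutant and wild type on empty vector (axis in log2 units, 0 marks no difference) for the 8 genes, with 95% intervals from the limma fit and filled points where called. The intervals of coq-1, coq-2, coq-4 and coq-8 lay above 0 in clk-1, and the interval of coq-5 lay below 0 in all 4 mutants.

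The 3 other mutants were also each compared with the same wild type libraries, so their values share those controls. In eat-2, a mutant of a pharyngeal acetylcholine receptor subunit that feeds poorly, 3 of the 7 genes were lower and none was higher, beside 57% of all genes called, 27.2% higher and 29.8% lower. coq-5 fell by 0.48 (limma adjusted p = 1.081e-08) and coq-8 fell by 0.36 (2.442e-09). For coq-5 the eat-2 libraries read 686, 683, 643 and 712, all below the lowest wild type library. coq-1 fell by 0.24 (limma adjusted p = 0.0274), and this call was lost in 8 of the 24 alternatives, among them edgeR on whole reads (adjusted p = 0.066) and each pair of batches. After quantile normalization, which moved the median of all genes from 0.00 to -0.10, all 7 genes were called lower in eat-2. That fit called 6720 of the 12327 genes tested, 2538 of them higher and the rest lower.

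RAGA-1 is a small GTPase upstream of the TOR kinase. In raga-1 mutants 2 of the 7 genes were lower, beside 46.1% of all genes called, 19.7% higher and 26.4% lower. coq-5 fell by 0.61 (limma adjusted p = 9.167e-11), with 541, 663, 623 and 663 normalized counts, and coq-8 fell by 0.30 (2.609e-07), with 1134, 1206, 1228 and 1175. Both genes lay below every wild type library in all 4. AGE-1 is the kinase that makes the lipid second messenger of insulin signalling. In age-1 mutants the limma fit called 0 of the 7, beside 8.48% of all genes. 2 of them, coq-5 and coq-8, had an unadjusted p under 0.05, edgeR called 0, and DESeq2 called 1, which was coq-5. Marker lists moved in these 3 mutants too, and their part was not tested. In age-1, 7 of 8 body wall muscle markers and 4 of 8 intestine markers had an unadjusted p under 0.05 by limma. No other marker list there held more than 2. At the same unadjusted cut, the muscle and intestine counts were 4 and 7 in eat-2 and 6 and 5 in raga-1. The counts called higher or lower in eat-2 and raga-1 below are at an adjusted p under 0.05. The muscle sums were 113841 to 133013 normalized counts in age-1 and 93716 to 110744 in wild type. The intestine sums were 1313410 to 1527740 and 1321040 to 1466740. In eat-2 the oocyte and germline markers summed to 165091 to 173824 normalized counts, with 12 of 12 lower than in wild type. There, 6 of 8 neuron markers (5679.99 to 6188), 4 of 5 pharynx markers (6022 to 6346) and 4 of 8 body wall muscle markers (107089 to 114031) were higher and none was lower. The intestine markers of eat-2 summed to 935119 to 989152, below every wild type library, with 5 higher and 2 lower of 8. In raga-1, 7 of 12 oocyte and germline markers were lower (180961 to 195186), and 6 of 8 body wall muscle markers (127807 to 149186) and 5 of 8 neuron markers (5589 to 11534) were higher. The median neuron sum in raga-1 was 5697, with 1 library far above it at 11534. The intestine markers of raga-1 summed to 2451560.0 to 3012710.0, with 3 higher and 2 lower of 8, and the pharynx markers to 5036 to 5363, with 2 higher and 1 lower of 5. Hypodermis markers were 2 higher and 2 lower of 7 in eat-2 (70474 to 73249) and 2 higher and 1 lower in raga-1 (93034 to 105543). Early embryo markers were 1 of 4 higher in eat-2 (546 to 629) and 2 of 4 lower in raga-1 (288 to 389), and for sperm markers (297 to 1280.3 and 371 to 1158) limma called 0 of 15 in either mutant, with 0 at an unadjusted p under 0.05.

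The clk-1 transcript did not pass in any of these 3 mutants, with log2 differences of -0.03 for eat-2, -0.24 for raga-1 and 0.04 for age-1 (limma adjusted p = 0.877, 0.141 and 0.918 in that order).

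RNAi against repo-1 was compared with empty vector within each genotype, and the clk-1 transcript was not called in any of the 5. The members called are given per genotype, and the interaction terms further on test whether a mutant departed from wild type. In wild type, coq-5 fell by 0.30 (limma adjusted p = 0.000196) and coq-8 fell by 0.16 (0.00483), 2 of 7 lower and none higher, beside 23% of all genes called, 10.1% higher and 12.9% lower. The coq-8 call was lost without replicate 4 (adjusted p = 0.1078) and within each pair of batches. In age-1 the same pair passed, at -0.20 (limma adjusted p = 0.0122) and -0.15 (0.00915), beside 20.9% of all genes called, 10.6% higher and 10.2% lower. Neither passed without replicate 3 (adjusted p = 0.1339 for coq-5 and 0.1034 for coq-8) or within batches 1 and 2 (0.3709 and 0.3432). coq-8 was also lost without replicate 4 (0.0606), without RNAi replicate 1 (0.0548) and when only the groups compared were fitted (0.1101). Without RNAi replicate 4 the count in age-1 was 5 of 7, and the share of all genes called in that fit is not given here. In eat-2, coq-4 rose by 0.35 (limma adjusted p = 0.00252) and coq-6 by 0.24 (0.00244), beside 37.5% of all genes called, 16.2% higher and 21.4% lower. In clk-1 only coq-6 rose, by 0.28 ± 0.06 (limma adjusted p = 0.000341), from a mean of 483 to 583 normalized counts, beside 46.3% of all genes called, 23.8% higher and 22.5% lower. Within batches 1 and 2 no member passed in eat-2 or clk-1, with coq-6 at 0.24 (adjusted p = 0.1147) and 0.26 (adjusted p = 0.0691).

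In raga-1 mutants RNAi moved 4 of the 7, 1 higher and 3 lower, beside 71.1% of all genes called, 38.2% higher and 33% lower. coq-2 fell by 0.49 ± 0.09 (limma adjusted p = 6.881e-06), from 328, 288, 299.8 and 318 normalized counts on empty vector to 209, 237, 243 and 189. The groups did not overlap. coq-5 fell by 0.41 (limma adjusted p = 1.661e-07) and coq-8 fell by 0.27 (5.344e-07), while coq-6 rose by 0.34 (1.048e-05). coq-5 in raga-1 on RNAi, at 468 ± 32.5 (SD, n = 4), was the lowest coq-5 group mean, 49.2% of wild type on empty vector. In this comparison the median of all genes was 0.10, and quantile normalization moved it to -0.07. Under that scaling 6 of the 7 were called, 1 higher and 5 lower. The share of higher calls among all genes called fell under it as well, as given in the last paragraph. The share of all genes called under it is not given here. Without RNAi replicate 3, whose library name carries a run label of its own, coq-2 (-0.55), coq-5 (-0.38), coq-8 (-0.29) and coq-6 (0.29) still passed, and coq-3 passed as well, at -0.19 (adjusted p = 0.0415).

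Tissue markers moved in the RNAi comparisons too, and their part in the members' differences was not tested. In raga-1 the sperm markers summed to 371 to 1158 normalized counts on empty vector and 6981 to 8528 on RNAi, with 15 of 15 tested higher. The oocyte and germline markers summed to 180961 to 195186 and 94622 to 109891, with 12 of 12 lower. Body wall muscle markers summed to 127807 to 149186 and 234386 to 244363, with 8 of 8 higher. Intestine markers summed to 2451560.0 to 3012710.0 and 3133200.0 to 3965750.0, with 7 of 8 higher and none lower. Neuron markers summed to 5589 to 11534 and 8324 to 9646, with 7 of 8 higher and none lower. The median neuron sum on empty vector was 5697, with 1 library far above it at 11534. Pharynx markers summed to 5036 to 5363 and 8638 to 9735, with 5 of 5 tested higher. Hypodermis markers summed to 93034 to 105543 and 131954 to 144311, with 5 of 7 higher and none lower. Early embryo markers summed to 288 to 389 and 174 to 213, with 3 of 4 tested lower and sdz-23, tbx-35 and med-1 at 0 in both groups.

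In the other genotypes the sperm markers were higher on RNAi as well, in 13 of 15 tested in wild type, 12 of 15 in eat-2, 15 of 15 in clk-1 and 13 of 15 in age-1, with none lower. The oocyte and germline markers called were 6 of 12 lower in wild type, 6 of 12 lower in eat-2, 7 lower and 2 higher in clk-1 and 5 of 12 lower in age-1. In clk-1, 6 of 8 body wall muscle markers, 5 of 8 neuron markers and 5 of 8 intestine markers were higher, with 1 intestine marker lower. In clk-1 also, 4 of 4 early embryo markers were lower, 4 of 7 hypodermis markers were higher and 2 lower, and 2 of 5 pharynx markers were higher and 1 lower. In wild type, eat-2 and age-1 the most called in any of these 6 lists was 6, for the body wall muscle markers of eat-2, with 4 higher and 2 lower.

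Averaged over the 5 genotypes, the RNAi comparison called 6 of the 7, 2 higher and 4 lower, beside 65.6% of all genes called, 31.4% higher and 34.2% lower. coq-6 rose by 0.19 ± 0.03 (limma adjusted p = 2.54e-07) and coq-4 by 0.10 ± 0.04 (0.0246). coq-5 fell by 0.22 ± 0.03 (limma adjusted p = 4.582e-09), coq-8 fell by 0.13 ± 0.02 (9.424e-08) and coq-2 fell by 0.12 ± 0.04 (0.00557). coq-1 fell by 0.09 ± 0.04 (limma adjusted p = 0.044), a call that was lost in 30 of the 56 alternatives. Among these were the replicate block (adjusted p = 0.0504), no filter (0.0577), quantile normalization (0.2436), each pair of batches and 25 of the 44 fits that left out libraries. coq-4 was lost by edgeR (adjusted p = 0.0688), within batches 1 and 2, and without replicate 3 or replicate 4. coq-2 was lost within batches 1 and 2 (adjusted p = 0.2835) and without replicate 4 (0.0794). The averages hide the genotypes: the main limma fit did not call coq-1 in any single genotype. Its log2 difference was 0.09 in clk-1 and 0.02 in raga-1, and below 0 in wild type, eat-2 and age-1. In clk-1 it averaged 1085 ± 40.7 and 1157 ± 79.9 (SD, n = 4) without and with RNAi, with overlapping libraries.

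**Figure D3:**
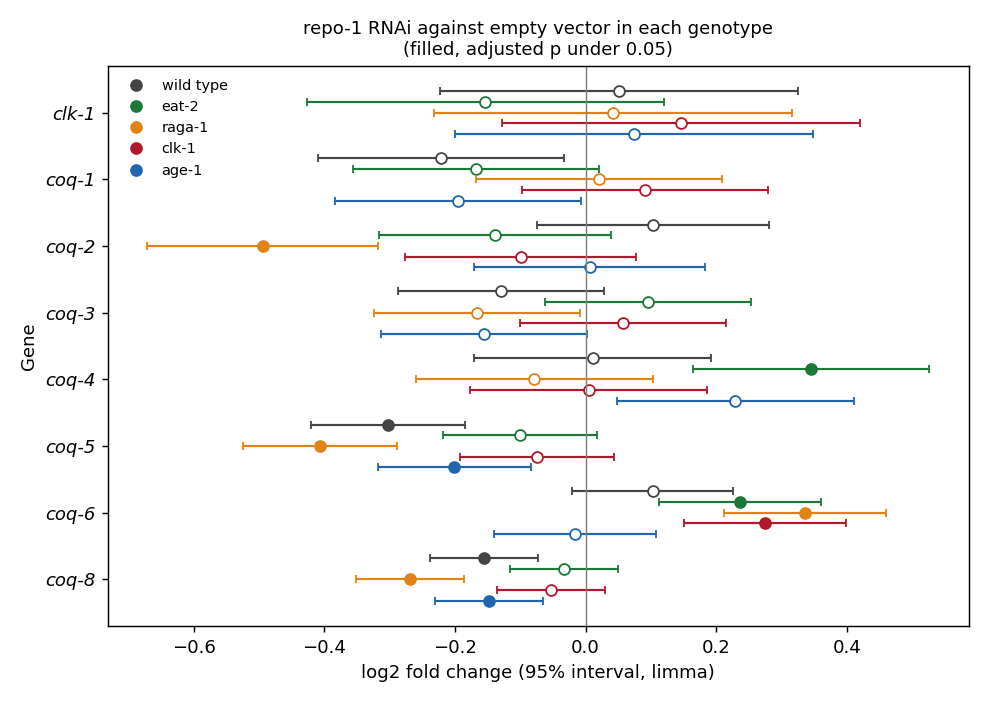
Log2 differences between repo-1 RNAi and empty vector in each of the 5 genotypes (axis in log2 units, 0 marks no difference) for the 8 genes, with 95% intervals from the limma fit and filled points where called. The interval of coq-2 lay below 0 in raga-1, and that of coq-6 above 0 in eat-2, raga-1 and clk-1.

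Interaction terms tested whether the RNAi difference of a mutant departed from that of wild type. In raga-1, coq-2 departed by -0.60 ± 0.12 (limma adjusted p = 0.000127) and coq-6 by 0.23 ± 0.09 (0.0219), 2 of 7 beside 55.6% of all genes. The coq-2 term held in all 32 alternatives. The coq-6 term was lost in 7 of them: by edgeR (adjusted p = 0.0695), within each pair of batches, without replicate 3 (0.1392) or replicate 4 (0.0762), without raga-1 RNAi replicate 3 (0.068) and without raga-1 empty vector replicate 2 (0.0503). In clk-1 only coq-5 passed, at 0.23 ± 0.08 (limma adjusted p = 0.0394), beside 23.6% of all genes. The coq-5 call was lost in 13 of the 20 fits that left out libraries or a replicate number. coq-1 departed by 0.31 ± 0.13 in clk-1 and did not pass (95% interval 0.04 to 0.58, adjusted p = 0.0828). It passed with array quality weights (0.28, adjusted p = 0.037) and when only the 4 groups compared were fitted (adjusted p = 0.00736). In eat-2, limma called 0 of 7, beside 10.7% of all genes called at the same adjusted threshold, and edgeR called 0. At an unadjusted limma p under 0.05 there were 4 of the 7. The largest of those p-values, 0.0472 for coq-3, ranked 2736 of the 12327 genes tested. In age-1, limma called 0 of 7, beside 0.00811% of all genes, edgeR called 0, and 0 had an unadjusted p under 0.05.

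Genes that supply or use ubiquinone were counted in the clk-1 comparison on empty vector for context. Of 6 tested genes of the mevalonate route to the tail, 2 were higher and 1 lower. hmgs-1, the synthase of hydroxymethylglutaryl-CoA, rose by 0.39 ± 0.10 and fdps-1, which makes farnesyl diphosphate, by 0.15 ± 0.05. kat-1, a thiolase, fell by 0.23 ± 0.04. Of 8 genes of tryptophan and tyrosine breakdown, the routes that feed the head groups of rhodoquinone and ubiquinone, 1 was higher and 4 were lower. tdo-2, the tryptophan dioxygenase, rose by 0.42 ± 0.10, kynu-1, the kynureninase, fell by 0.59 ± 0.06 and kmo-1, the kynurenine monooxygenase, fell by 0.48 ± 0.16. tatn-1, the tyrosine aminotransferase, fell by 0.45 ± 0.16.

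Users of ubiquinone moved in both directions. Among 9 tested enzymes that pass electrons to ubiquinone outside complex I, 5 were higher and 3 lower. sqrd-1, the sulfide quinone oxidoreductase, averaged 316 ± 16.7 normalized counts in clk-1 mutants and 85.3 ± 8.03 in wild type (SD, n = 4). The groups were far apart, with a log2 difference of 1.88 ± 0.12 (limma adjusted p = 2.788e-15). prdh-1, a proline dehydrogenase, fell by 0.63 ± 0.08, sdha-2, a copy of the succinate dehydrogenase flavoprotein, fell by 0.45 ± 0.04, and dhod-1, the dihydroorotate dehydrogenase, fell by 0.32 ± 0.05. Of 13 complex I genes, 1 was higher and 5 were lower, with nduf-2.2, a core subunit, falling by 0.67 ± 0.05 and gas-1, another copy of the same subunit, rising by 0.25 ± 0.08. Reads of gas-1 and nduf-2.2, and of sdha-1 and sdha-2, may be split by the counting, since they are related copies. Of 9 genes of complex III and cytochrome c, 2 were higher and 2 lower: ucr-2.1 rose by 0.46 ± 0.06 and ucr-2.3 fell by 0.46 ± 0.05, both core protein copies.

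The mitochondrial stress response list holds enzymes such as sod-3, gst-4 and ctl-1 beside chaperones such as hsp-6 and hsp-60. Of its 13 tested genes, 9 were higher and 2 lower, with a median log2 difference of 0.50. sod-3, a mitochondrial superoxide dismutase, averaged 223 ± 33.4 in clk-1 mutants and 49.7 ± 9.93 in wild type, and hsp-6, the mitochondrial Hsp70, averaged 24206 ± 1315 and 13478 ± 344 (SD, n = 4). The libraries of both genes were apart, and the log2 differences were 2.15 ± 0.17 and 0.84 ± 0.06 (limma adjusted p = 4.451e-13 and 5.137e-15). gst-4, a glutathione transferase, rose by 1.22 ± 0.16 and ctl-1, a catalase, by 1.18 ± 0.11. hsp-60, the mitochondrial chaperonin, and ubl-5, a ubiquitin-like protein, fell by 0.72 ± 0.07 and 0.81 ± 0.22. The counts of all 6 lists stand beside the same 58.3% of all genes called.

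On RNAi the counts of the lists in clk-1 against wild type were 3 higher and 0 lower of 6 tail genes, and 4 higher and 0 lower of 8 head group genes. They were 6 higher and 2 lower of 9 electron donors, 8 higher and 1 lower of 13 complex I genes, 6 higher and 1 lower of 9 complex III genes and 11 higher and 2 lower of 13 stress genes. In that comparison 58.3% of all genes were called, 29.3% higher and 29% lower. hmgs-1 (0.66 ± 0.10), sqrd-1 (1.93 ± 0.12) and sod-3 (1.90 ± 0.17) were higher there too. kynu-1 did not pass on RNAi, at -0.07 ± 0.06 (limma adjusted p = 0.313). gas-1 stood at 0.86 ± 0.08 and ucr-2.1 at 0.79 ± 0.06.

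**Figure D4:**
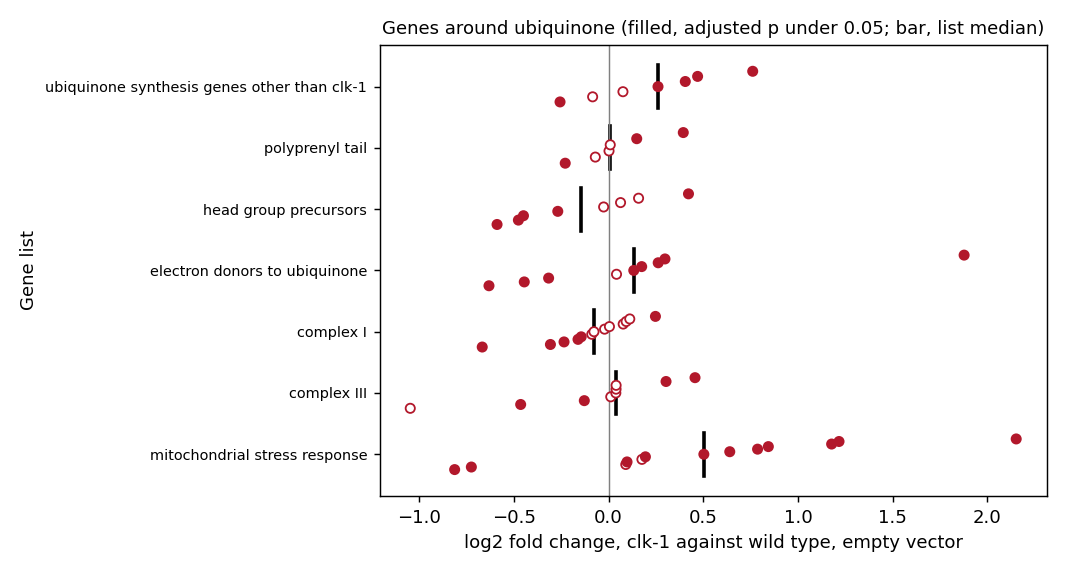
Log2 differences between clk-1 mutants and wild type on empty vector for the 7 other ubiquinone genes and the tested genes of each pathway list (axis in log2 units, 0 marks no difference). Each point is 1 gene, filled where limma called it, and the bar is the list's median: 0.26 for the ubiquinone genes and 0.50 for the stress response, with cytochrome c counted under complex III.

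The genes next to clk-1 on the chromosome were read for the same comparison. toc-1 ends 91 bases upstream of clk-1 on the same strand. It averaged 842 ± 65.9 normalized counts in clk-1 mutants and 1176 ± 56.7 in wild type (SD, n = 4), and fell by 0.48 ± 0.08 (limma adjusted p = 6.311e-06). It was as low in eat-2 at 844 ± 36.1 and in raga-1 at 777 ± 26.7, and against the mean of the other 3 mutants it did not pass in clk-1, at -0.04 (adjusted p = 0.62). daf-41, an Hsp90 co-chaperone on the other strand, fell by 0.69 ± 0.07 in clk-1 against wild type (limma adjusted p = 8.533e-11) and by 0.55 ± 0.06 against the mean of the other mutants (1.402e-10). Downstream of clk-1, T15B12.1 did not pass in clk-1, at 0.01 (adjusted p = 0.934), and ZC395.11 was listed at 0 in every library.

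Patterns across the groups were described by Pearson's correlation of group means of log2(value + 1). The points share libraries, size factors and 2 treatments, so these values are descriptions. Among the members, coq-8 followed coq-1 (0.87) and coq-2 (0.87), and coq-4 followed coq-1 (0.77), over all 10 groups. The 2 highest group means of coq-1, coq-2, coq-4 and coq-8 were all those of clk-1 mutants. These 2 groups therefore weigh on the values, which were not computed without them. The candidates were 5205 named genes averaging 100 or more normalized counts, and the 3 closest to each member were read. For coq-1, over the 10 groups, they were emb-8, a cytochrome P450 reductase (0.98), trx-2, the mitochondrial thioredoxin (0.98), and cyp-13A7, a cytochrome P450 (0.98). Likeness to coq-1 rests largely on the clk-1 groups, where coq-1 averaged 1085 and 1157 normalized counts, against 483 to 641 in the other groups. For coq-8 the 3 closest were ogdh-2 (0.98), pigq-1 (0.98) and tsfm-1 (0.97), and for coq-5 bpl-1 (0.99), wht-2 (0.98) and odr-8 (0.98). For clk-1, over the 8 groups of the other 4 genotypes, they were him-19 (0.97), qdpr-1 (0.92) and nstp-4 (0.92). The closest gene to coq-2 was pigg-1 (0.96), to coq-4 mtm-6 (0.95) and to coq-6 pmp-4 (0.95). coq-3 had no candidate above mrpl-41 at 0.75, on a range of group means of 1.16 times.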

How the data were processed

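mRNA libraries of whole worms were made with a Roche Kapa stranded kit from 300 ng of RNA per sample, per the labels' protocols. Build WBcel235, Salmon 0.14.2, FastQC 0.11.8, DESeq2, MultiQC and STAR are listed without roles, per the submitters' processing notes, and the strand used in counting is not given in the sources used here. The authors deposited a signal in which the reads of a gene are scaled by the size factor of their library. Dividing each column by its smallest value gave whole reads, within 0.01, and 2 of the 40 columns have steps within 1% of 1 read. Genes with a mean of at least 10 were kept (12327 of 20956). log2(value + 1) was fitted with limma 3.58.1 in R 4.3.3, 1 mean per group over all 40 libraries and an intensity trend, with Benjamini-Hochberg adjustment within each of the comparisons and a threshold of 0.05; fold changes are on that scale and understate low genes. Alternatives were edgeR 4.0.16 and DESeq2 1.42.0 on whole reads, quantile normalization, array weights, another pseudocount, no filter, fits of only the groups compared, pairs of batches and leaving out libraries. Replicate numbers are the batch numbers of the labels and therefore pair the samples. The residuals of same-numbered libraries correlated at 0.0522 on average, and above 0.1 in 40 of 180 pairs. The average of -0.0171 for other pairs is not a separate baseline, since residuals sum to 0 within each group. Members, lists and tests were chosen with earlier results of these data known. Positions come from the WBcel235 annotation, where no other gene overlaps a member.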

Additional observations from a re-analysis of the deposited data

Results flagged for a closer look

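In 3 of the 80 sets of 4 libraries, 1 library stood far from the other 3, a rule that chance alone meets in about 1 set in 20. clk-1 in wild type on RNAi read 249.9 in replicate 1 against 229, 231 and 232 in the others. coq-1 in age-1 on RNAi read 670.9 in replicate 4 against 433, 461 and 470.0. Without that library the RNAi difference of coq-1 in age-1 was -0.34 and passed (limma adjusted p = 0.00222), where with it -0.20 did not (adjusted p = 0.1309). coq-8 in clk-1 on RNAi read 1819 in replicate 2 against 1868, 1870 and 1877, a gap that is small beside its level.

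In 3 of the 32 interaction terms tested for the 8 genes, limma called the RNAi difference of a mutant apart from that of wild type. Of all genes, 55.6% were called in raga-1, 23.6% in clk-1, 10.7% in eat-2 and 0.00811% in age-1. coq-2 departed by -0.60 in raga-1, where RNAi lowered it by 0.49 on the log2 scale and in wild type its difference was 0.10. coq-6 departed by 0.23 in raga-1, with a rise of 0.34 there and 0.10 in wild type. That call held in 9 of 12 other settings and in 16 of 20 fits that left out libraries. coq-5 departed by 0.23 in clk-1, where its difference was -0.07 and in wild type -0.30. The coq-5 call held in only 7 of 12 other settings and 7 of 20 fits that left out libraries.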

How the results depend on the processing

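Over 24 to 56 alternatives per comparison, none of the called differences of single genes changed sign. The fall of the clk-1 transcript in its mutant ran from -1.65 to -1.46 over the fits that left out libraries and stayed past the threshold in all 24 alternatives. With the replicate block the number of members called in clk-1 against wild type on empty vector was 5, as without it, and in the averaged RNAi comparison it was 5, the only call lost being coq-1 (adjusted p = 0.0504). Counts of members called moved as follows, each with the calls among all 12327 genes tested in that fit in brackets. Within batches 1 and 2, which hold 2 libraries per group, they were 3 (5305) for clk-1 against wild type on empty vector. They were 2 (4696) for the same on RNAi. For RNAi they were 1 (1121) in wild type, 0 (2225) in eat-2, 0 (3193) in clk-1, 0 (1458) in age-1 and 3 (6324) averaged. For the interactions they were 1 (5223) in raga-1 and 0 (1065) in clk-1. Within batches 3 and 4 they were 1 (1823) for RNAi in wild type and 1 (3680) for RNAi in eat-2. There the raga-1 interaction had 1 (4707) and the clk-1 interaction 0 (2608). Quantile normalization gave 7 (6720) for eat-2 against wild type, 1 (1387) for the eat-2 interaction and 0 (3179) for the clk-1 interaction. Array quality weights gave 1 (1638) for age-1 against wild type, 4 (6235) for RNAi in eat-2 and 5 (3752) for RNAi in age-1. They gave 2 (2639) for the eat-2 interaction and 2 (4622) for the clk-1 interaction. Fitting only the groups compared gave 1 (1067) for RNAi in age-1 and 2 (3580) for the clk-1 interaction. edgeR gave 2 (6261) for RNAi in clk-1 and 0 (3326) for the clk-1 interaction. DESeq2 gave 1 (1244) for age-1 against wild type, and no filter gave 0 (2852 of 19461) for the clk-1 interaction. The causes were not tested.

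For the fits that left out libraries or replicate numbers, the shares of all genes called are not given here. Leaving out libraries or replicate numbers gave 4 to 5 members for clk-1 against wild type on empty vector, 4 throughout on RNAi, 4 to 6 against the other mutants, 2 to 3 for eat-2 and 2 throughout for raga-1. It gave 0 to 1 for age-1 (1 without wild type replicate 3), 1 to 2 for RNAi in wild type (1 without replicate 4), 4 to 5 in raga-1, 0 to 5 in age-1 and 4 to 6 averaged. In age-1 the count was 0 without replicate 3, 1 without RNAi replicate 1 and 5 without RNAi replicate 4. It gave 0 to 1 for the eat-2 interaction (1 without replicate 1 or its RNAi library), 1 to 3 for raga-1 (1 without replicate 3, its RNAi library, or empty vector replicate 2) and 0 to 1 for clk-1. Quantile normalization moved the median of all genes in raga-1 on RNAi from 0.10 to -0.07, and the share of calls that were higher from 53.7% to 43.2%. For RNAi in eat-2 that share was 43.1%, against 53.5% after quantile normalization and 32.6% by edgeR. The fewest reads behind a member's value were 48, for clk-1 in raga-1 on empty vector, replicate 1, and within the clk-1 mutant 63.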
